A study of Mus musculus with 6 samples.

Results

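Macrophages and related phagocytes are described here through 34 genes, taken by symbol from a list that was made with earlier results of these data known. All 34 are among the 19938 genes measured, each through 1 probeset (a set of array probes read as a unit) that the platform table pairs with no other gene. By the study's methods, the RNA came from spleen cells of mice aged 1 year. The cells were bound to magnetic beads by an antibody against B220, a surface form of CD45 on B cells. In the p80HT group (n = 3 mice) serum M-protein was present, and the animals carry the human coding sequence of p80HT, a truncated NF-κB2 found in lymphoma, driven in T and B lymphocytes by an H-2Kb promoter with an immunoglobulin μ enhancer. The WT group (n = 3) holds littermates without the transgene, and both groups share the C57BL/6J x SJL/J background. Each mouse gave RNA for 1 Affymetrix Mouse Gene 1.0 ST array, and values are log2 signals. The mouse gene Nfkb2 was at 10.69 ± 0.16 (SD, n = 3) in p80HT and 10.86 ± 0.07 in WT. The probes were made for mouse genes, and whether they also read the human transgene was not tested, so this value is no measure of it.

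Macrophages take up and digest dead cells, microbes and worn red cells. In the spleen they fall into kinds with separate homes: red pulp macrophages break down ageing erythrocytes and return their iron, while marginal zone and metallophilic macrophages line the border where blood enters the white pulp. Scavenger receptors bind modified lipids and debris, the C1q complement chains coat cells for uptake, and cathepsins digest the cargo in lysosomes. In a B220 selection such genes can mark cells that the selection was not aimed at, but B cells can use some of them as well, Cybb among them. Which cells gave the signal of each gene was not tested. In RNA from a mixture, more cells of a kind and more RNA per cell cannot be told apart.

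Before the results, the array of p80HT 3 needs a separate word. Its correlation with the other 5 arrays across genes was 0.914 to 0.925, against 0.981 or more among those 5. On it the mean log2 signal of 8 salivary and lacrimal gland genes was 11.94, where the other p80HT arrays read 6.43 and 6.58 and the WT arrays 6.27 to 6.47. The mean of 8 genes of fibroblasts and stroma was 10.56 on p80HT 3 and 7.37 to 7.76 on the other 5 arrays. The 7 measured B cell genes averaged 10.92 on it, 12.08 and 12.23 on p80HT 2 and p80HT 1, and 12.38 to 12.60 in WT, so they stood above the median signal of every array (7.68 to 7.81) but were lowest on p80HT 3. Whether the RNA on p80HT 3 came from B220-selected spleen cells alone was not tested and cannot be told from these values. Results below are given with that array, and most of them also without it.

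The promoters of members that passed the threshold and of 2 C1q chains are shown first, so that the letters before their start sites can be read beside the values. They are Mpeg1, Apoe and Vsig4, which rose with all 6 arrays, Cd5l and Lgals3, which rose without p80HT 3, and C1qb and C1qc, neighbouring genes that were both above WT on every p80HT array. The RefSeq table (GRCm38.p6) holds a start site for 25 of the 34 members, and Adgre1, which also rose, and C1qa are among the 9 it does not list. Each line gives the 250 bases before the start, 5′ to 3′ on the gene's strand, for chr19:12460520-12460769 (plus strand), chr7:19699189-19699438 (minus), chrX:96293439-96293688 (minus), chr3:87357631-87357880 (plus), chr14:47373610-47373859 (plus), chr4:136886201-136886450 (minus) and chr4:136892915-136893164 (minus). Capitals mark GAGGAA, the core letters bound by PU.1, a transcription factor that macrophages and B cells share, or the same letters on the other strand, TTCCTC.
Mpeg1: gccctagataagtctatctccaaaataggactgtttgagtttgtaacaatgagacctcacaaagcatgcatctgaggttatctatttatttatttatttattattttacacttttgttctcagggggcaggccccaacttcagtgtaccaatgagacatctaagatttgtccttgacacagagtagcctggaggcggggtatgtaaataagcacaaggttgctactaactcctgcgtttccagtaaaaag
Apoe: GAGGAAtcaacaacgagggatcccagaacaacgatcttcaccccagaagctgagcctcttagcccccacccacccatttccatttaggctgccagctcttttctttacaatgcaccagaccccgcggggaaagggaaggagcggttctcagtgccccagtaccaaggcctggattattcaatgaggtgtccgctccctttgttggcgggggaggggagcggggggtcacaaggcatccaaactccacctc
Vsig4: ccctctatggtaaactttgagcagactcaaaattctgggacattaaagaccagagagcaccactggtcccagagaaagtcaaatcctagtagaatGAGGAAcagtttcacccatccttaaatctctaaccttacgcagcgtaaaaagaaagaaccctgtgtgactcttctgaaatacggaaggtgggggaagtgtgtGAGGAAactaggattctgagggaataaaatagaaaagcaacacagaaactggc
Cd5l: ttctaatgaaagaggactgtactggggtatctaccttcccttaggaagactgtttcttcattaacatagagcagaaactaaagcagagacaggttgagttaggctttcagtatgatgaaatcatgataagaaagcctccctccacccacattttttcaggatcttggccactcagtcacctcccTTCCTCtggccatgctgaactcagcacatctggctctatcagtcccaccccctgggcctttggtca
Lgals3: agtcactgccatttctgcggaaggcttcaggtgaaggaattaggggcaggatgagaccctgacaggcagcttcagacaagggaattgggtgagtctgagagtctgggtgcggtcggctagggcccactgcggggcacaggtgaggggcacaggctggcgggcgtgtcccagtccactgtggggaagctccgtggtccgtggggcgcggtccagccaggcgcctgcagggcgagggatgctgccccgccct
C1qb: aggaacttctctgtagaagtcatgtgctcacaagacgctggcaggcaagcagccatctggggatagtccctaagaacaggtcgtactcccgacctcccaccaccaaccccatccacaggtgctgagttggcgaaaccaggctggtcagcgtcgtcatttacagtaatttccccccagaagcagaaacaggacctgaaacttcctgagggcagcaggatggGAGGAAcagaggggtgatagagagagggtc
C1qc: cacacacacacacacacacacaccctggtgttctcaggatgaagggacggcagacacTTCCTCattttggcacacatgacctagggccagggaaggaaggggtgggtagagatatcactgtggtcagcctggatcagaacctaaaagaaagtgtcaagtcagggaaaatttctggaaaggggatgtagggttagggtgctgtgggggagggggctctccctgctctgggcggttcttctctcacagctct
These letters stand in the 250 bases of 12 of the 25 members with a listed start, and in 23.3% of all 32851 windows of that length in the table. Members are counted by gene, with the most upstream start where several are listed. The table is counted by window, so the shares are not on the same unit and were not compared. Vsig4 holds 2 matches, Apoe, Cd5l, C1qb and C1qc 1 each, and Mpeg1 and Lgals3 none in this window. A match is only a match of letters. Spi1, the gene of PU.1, named here for that role and with its values known, was at 11.37 ± 0.08 (SD, n = 3) in WT and 11.38 ± 0.33 in p80HT, a log2 difference of 0.02 with a 95% interval of -0.42 to 0.45, and -0.15 without p80HT 3.

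In p80HT samples, 4 of the 34 macrophage genes rose: Mpeg1, a pore-forming protein of phagosomes, Apoe, the lipid carrier apolipoprotein E, Adgre1, which encodes the macrophage marker F4/80, and Vsig4, a complement receptor of tissue macrophages. Rose and fell are used for a change of 1.5-fold or more whose unadjusted p in limma (2-sided, fitted on all genes) was under 0.01, the threshold of the study's methods. Among all genes 1.22% rose. None of the 34 fell, against 0.968% of all genes. At an unadjusted p under 0.05 none was lower in limma, against 1189 of all 19938 genes. By the methods' analysis of variance none was lower at that level either, against 1212 of all genes. The other 30 did not pass. After Benjamini-Hochberg adjustment across the 19938 genes none of the 34 was under 0.05 in limma. Of all genes 0.0502% were higher and 0.00502% lower by that measure. The analysis of variance called 0 of all 19938 genes after adjustment, so its lack of calls says nothing particular to the 34. At an unadjusted p under 0.05 limma had 6 of the 34 higher, against 4.28% of all genes, and the analysis of variance 5, against 3.52%. The median log2 difference (p80HT minus WT) of the 34 was 0.75, beside -0.02 over all genes, and 31 were positive, against 45.1% of all genes. Without p80HT 3, 6 of the 34 rose (Cd5l and Lgals3 besides the same 4), against 2.01% of all genes, their median was 0.22 beside 0.04, and 28 were positive, against 56.3%. Without that array an adjusted p under 0.05 in limma was reached by 6 in the higher direction, where 2.56% of all genes did so, and by 0 in the lower, where 2.11% did. The number that rose was 2 without WT 1 (0.792% of all genes) and 2 without WT 2 (0.687%), and 1 with the analysis of variance (0.597%). All 3 p80HT arrays lay above all 3 WT arrays for 17 of the 34, against 8.86% of all genes.

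**Figure D1:**
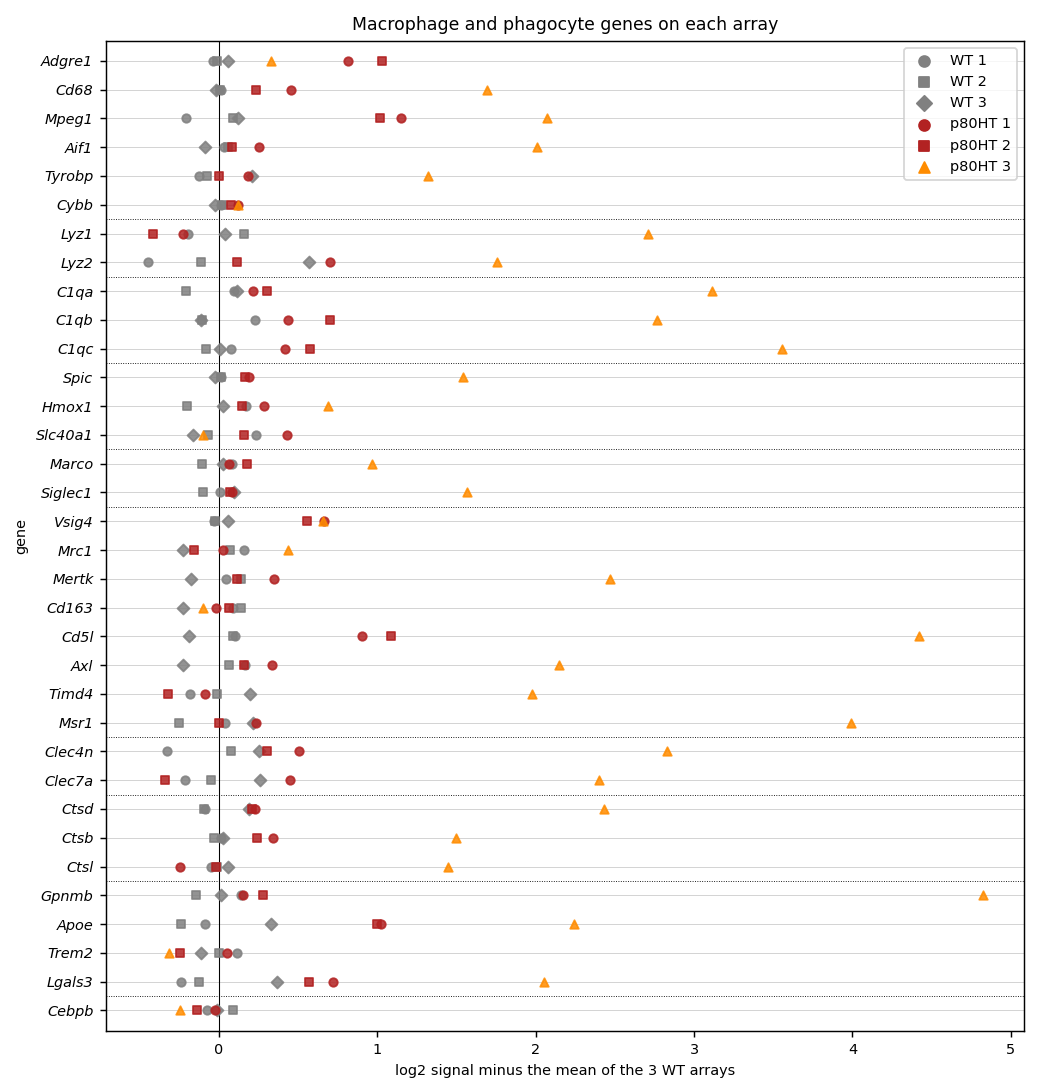
Log2 signal of each of the 34 genes (rows, grouped by role with dotted lines) minus its mean over the 3 WT arrays (horizontal axis), 1 point per array, WT in grey, p80HT 1 and 2 in red and p80HT 3 as orange triangles. For 23 of the 34 genes p80HT 3 lies more than 1 log2 unit above each of the other 5 arrays, while Mpeg1, Apoe, Adgre1, Vsig4 and Cd5l stand clear of WT on p80HT 1 and 2 as well.

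Of the 6 general macrophage markers, Mpeg1 and Adgre1 rose. Mpeg1 read 10.08, 10.38 and 10.41 (log2 signal) on WT 1 to 3 and 11.44, 11.30 and 12.36 on p80HT 1 to 3. All 3 p80HT arrays were thus above WT, with p80HT 3 the highest. The log2 difference was 1.41 ± 0.28 (SE, limma adjusted p = 0.181, 2.66-fold), and without p80HT 3 it was 1.08 (adjusted p = 0.0016 in limma). It kept its call without any 1 array, but not by the analysis of variance (unadjusted p = 0.0154 by that test).

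Adgre1 read 9.24, 9.27 and 9.34 in WT and 10.10, 10.31 and 9.61 on p80HT 1 to 3. The groups did not overlap, and here p80HT 3 was the lowest of the p80HT arrays, as it was for Slc40a1, Cd163, Trem2 and Cebpb. The log2 difference was 0.72 ± 0.19 (SE, limma adjusted p = 0.297), and 0.92 without p80HT 3 (adjusted p = 0.00164 in limma). The call was lost without WT 1 (0.70), WT 2 (0.72), WT 3 (0.75), p80HT 1 (0.68) or p80HT 2 (0.57). Cd68, a glycoprotein of late endosomes and lysosomes, read 10.83, 10.83 and 10.81 in WT and 11.28, 11.06 and 12.51 in p80HT, again without overlap. Its difference of 0.79 did not pass (limma adjusted p = 0.507), nor did 0.35 without p80HT 3.

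The remaining genes of this kind differed little outside p80HT 3. Aif1, an actin-binding protein of macrophages and microglia, read 6.92 to 7.06 in WT, 7.26 and 7.09 on p80HT 1 and 2 and 9.01 on p80HT 3 (log2 difference 0.78, and 0.17 without that array). Tyrobp, the signalling adaptor DAP12, read 10.78 to 11.11 in WT, 11.09 and 10.91 on p80HT 1 and 2, and 12.22 on p80HT 3, so its groups overlapped (0.50 and 0.09). Cybb, the catalytic chain of the phagocyte oxidase, was nearly level, at 13.02 ± 0.02 (SD, n = 3) in WT and 13.12 ± 0.03 in p80HT, with a 95% interval of the log2 difference from -0.16 to 0.36, and a difference of 0.10 with p80HT 3 and without it.

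Lysozyme digests bacterial cell walls, and mice have a pair of neighbouring genes for it that are near copies, so the probes of Lyz1 and Lyz2 may read some of the same RNA. Lyz2, the form of macrophages and other myeloid cells, read 11.44, 11.77 and 12.45 in WT and 12.59, 12.00 and 13.64 in p80HT. The WT arrays themselves spread over 1.02 log2 units, so p80HT 2 lay inside the WT range. The difference of 0.86 did not pass (limma adjusted p = 0.557), nor did 0.41 without p80HT 3. Lyz1, best known from Paneth cells of the gut, read 7.76, 8.11 and 8.0 in WT, 7.73 and 7.54 on p80HT 1 and 2 and 10.66 on p80HT 3. It was therefore below WT on the first 2 p80HT arrays and far above it on the third, with a log2 difference of 0.69 that became -0.32 without p80HT 3, and neither passed. Neutrophil markers also spread widely within WT: the mean log2 signal of 8 of them was 8.88 on WT 1, 10.09 on WT 2 and 11.08 on WT 3, and 11.04, 10.51 and 7.82 on p80HT 1 to 3. Lyz2 and this list were both lowest on WT 1 among the WT arrays and both highest on WT 3, but on p80HT 3 Lyz2 was at its highest and the list at its lowest. The part of neutrophils in the Lyz2 values was not tested.

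The chains of C1q, which starts the classical complement pathway and is made largely by macrophages, were above WT on every p80HT array, though none passed the threshold. C1qa read 9.01, 8.71 and 9.03 in WT and 9.13, 9.22 and 12.03 in p80HT. C1qb read 9.81, 9.48 and 9.47 in WT and 10.02, 10.29 and 12.36 in p80HT. C1qc read 8.85, 8.69 and 8.78 in WT and 9.20, 9.35 and 12.33 in p80HT. In each chain no p80HT array fell into the WT range, p80HT 2 was above p80HT 1, and p80HT 3 was more than 2 log2 units above both. The log2 differences of 1.21, 1.30 and 1.52 did not pass, with SDs of 1.65, 1.28 and 1.77 among the p80HT arrays. Without p80HT 3 the differences were 0.26, 0.57 and 0.50, each below 1.5-fold. C1qc then passed an adjusted p under 0.05 (limma adjusted p = 0.0346) while C1qb missed it at 0.0504.

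The red pulp genes are Spic, the transcription factor that red pulp macrophages need, Hmox1, the haem oxygenase that opens haem, and Slc40a1, the iron exporter ferroportin. Spic read 8.89, 8.89 and 8.85 in WT and 9.07, 9.05 and 10.42 in p80HT. Its groups did not overlap, and p80HT 1 and 2 were above WT by less than 0.25 log2 units. Hmox1 read 10.57, 10.20 and 10.43 in WT and 10.68, 10.54 and 11.09 in p80HT. Slc40a1 read 9.64, 9.34 and 9.25 in WT and 9.84, 9.57 and 9.31 in p80HT. Hmox1 and Slc40a1 overlapped between groups, and for Slc40a1 p80HT 3 was the lowest of the p80HT arrays and inside the WT range. None of the differences passed in limma (0.63, 0.37 and 0.16 on the log2 scale, and 0.18, 0.21 and 0.29 without p80HT 3), and at an unadjusted p under 0.05 none was called either, by limma or by the analysis of variance.

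The marginal zone genes are Marco, a scavenger receptor of marginal zone macrophages, and Siglec1, the sialic acid receptor CD169 of metallophilic macrophages. Marco read 7.43, 7.24 and 7.37 in WT and 7.41, 7.52 and 8.31 in p80HT. Siglec1 read 7.65, 7.54 and 7.74 in WT and 7.73, 7.72 and 9.21 in p80HT. Apart from Marco on p80HT 2, the values of p80HT 1 and 2 lay within the WT range, and p80HT 3 lay above every other array for both genes. The differences of 0.40 and 0.57 did not pass, and without p80HT 3 they were 0.12 and 0.08.

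The red pulp genes were also set against the marginal zone genes on each array. The mean log2 signal of the 3 red pulp genes was 9.56 ± 0.12 (SD, n = 3) in WT and 9.95 ± 0.29 in p80HT, a difference of 0.39. That of the marginal zone pair was 7.50 ± 0.09 in WT and 7.98 ± 0.67 in p80HT, a difference of 0.49. Red pulp minus marginal zone was 2.16, 2.09 and 1.95 on WT 1 to 3 and 2.29, 2.10 and 1.51 on p80HT 1 to 3, so that the groups overlapped. The change in this quantity was -0.10 with all 6 arrays, where the SD was 0.11 in WT and 0.41 in p80HT. Without p80HT 3, whose value is part of that 0.41, the change was 0.13. On p80HT 3 alone the marginal zone mean was 1.27 above WT and the red pulp mean 0.71. No test was made of these means, because the genes were picked with results known, and 0.1 is the smallest p that exact permutation of 3 and 3 arrays allows.

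**Figure D2:**
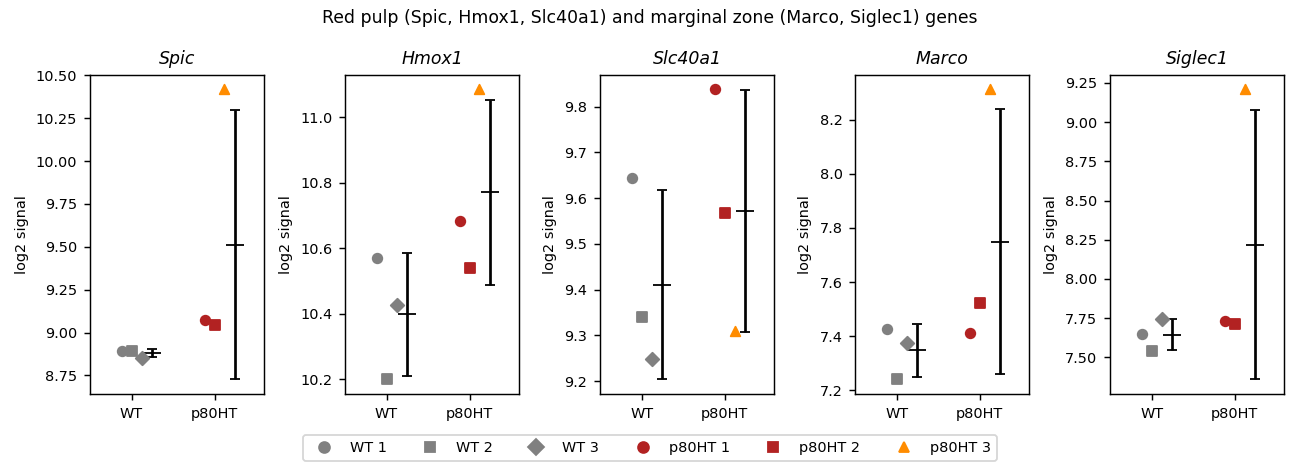
Log2 signal (vertical axes, each with its own range) of 3 red pulp genes and 2 marginal zone genes, 1 point per array, with group mean and SD (n = 3) as black bars. Marco and Siglec1 are within about 0.1 log2 units of the WT range on p80HT 1 and 2 and high on p80HT 3, and Slc40a1 is not raised on p80HT 3.

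Of the 8 scavenger and engulfment receptors, Vsig4 rose on all p80HT arrays alike. It read 5.67, 5.67 and 5.76 in WT and 6.36, 6.25 and 6.35 in p80HT, so p80HT 3 was no higher than p80HT 1. The log2 difference was 0.62 ± 0.11 (SE, limma adjusted p = 0.157, 1.54-fold) and 0.61 without p80HT 3 (adjusted p = 0.0105 in limma). Vsig4 kept its call without any 1 array and by the analysis of variance, but after centring each array on its median it was at 0.56, just under 1.5-fold. Its mean signal lies below the 25th percentile of all genes (6.81). The study's own list of changed genes, made from these arrays, holds Vsig4 too, so that list is not independent evidence.

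Cd5l, a protein that macrophages secrete and that supports their survival, had the largest difference of the 34 with all 6 arrays, and came after Mpeg1 and Apoe without p80HT 3. It read 8.01, 8.0 and 7.72 in WT, 8.81 and 9.0 on p80HT 1 and 2 and 12.33 on p80HT 3. Every p80HT array was above WT, and p80HT 3 was 3.33 above the next. With all 6 arrays the log2 difference of 2.14 did not pass (SD in p80HT 1.98, limma adjusted p = 0.468). Without p80HT 3 the difference fell to 0.99 and passed (adjusted p = 0.00207 in limma, 1.99-fold).

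Mertk and Axl, receptor kinases that bind dying cells through bridging proteins, were high on p80HT 3. Mertk read 8.05 to 8.36 in WT, 8.57 and 8.34 on p80HT 1 and 2, and 10.70 on p80HT 3. Axl read 8.74 to 9.12 in WT, 9.30 and 9.12 on p80HT 1 and 2, and 11.11 on p80HT 3. For both, p80HT 1 was above the WT range and p80HT 2 inside it, and neither passed (0.98 and 0.88, or 0.23 and 0.25 without p80HT 3). Msr1, a scavenger receptor for modified lipoproteins, read 6.32 to 6.79 in WT, 6.80 and 6.57 on p80HT 1 and 2 and 10.56 on p80HT 3. Timd4, a receptor for phosphatidylserine on resident macrophages, read 7.97 to 8.35 in WT, 8.07 and 7.83 on p80HT 1 and 2 and 10.13 on p80HT 3. Their differences of 1.41 and 0.52 did not pass, and without p80HT 3 they were 0.12 and -0.20. Mrc1, the mannose receptor, and Cd163, the receptor for haemoglobin bound to haptoglobin, differed little between groups. Mrc1, which was highest on p80HT 3 at 8.87, was at 8.44 ± 0.20 (SD, n = 3) in WT and 8.54 ± 0.30 in p80HT (95% interval of the log2 difference -0.35 to 0.55), and Cd163 at 6.67 ± 0.20 and 6.65 ± 0.08 (-0.36 to 0.32). Without p80HT 3 the differences were -0.06 and 0.02. The mean of Cd163 lies below the 25th percentile of all genes too.

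The C-type lectins Clec4n (Dectin-2) and Clec7a (Dectin-1) recognise sugars of fungal cell walls. Clec4n read 7.39, 7.78 and 7.96 in WT and 8.22, 8.01 and 10.54 in p80HT, without overlap. Clec7a read 8.39, 8.55 and 8.86 in WT and 9.05, 8.26 and 11.00 in p80HT, where p80HT 2 was the lowest of all 6 arrays. Neither passed (1.21 and 0.84, or 0.40 and 0.05 without p80HT 3).

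The 3 lysosomal cathepsins were all highest on p80HT 3. Ctsd, an aspartic protease, read 10.65, 10.64 and 10.93 in WT and 10.97, 10.94 and 13.17 in p80HT. Ctsb, a cysteine protease, read 11.21, 11.17 and 11.22 in WT and 11.55, 11.44 and 12.70 in p80HT. In both genes p80HT 1 and 2 lay above the highest WT array, for Ctsd by under 0.05 log2 units. Ctsl, a further cysteine protease, read 9.37 to 9.48 in WT, 9.17 and 9.40 on p80HT 1 and 2 and 10.87 on p80HT 3, so that its sign turned from 0.39 to -0.13 without p80HT 3. None of the 3 passed with or without that array in limma, and at an unadjusted p under 0.05 none was called with it, by limma or by the analysis of variance.

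Of the genes of lipid handling, Apoe rose with all 6 arrays and Lgals3 without p80HT 3. Apoe read 11.03, 10.88 and 11.44 in WT and 12.14, 12.12 and 13.36 in p80HT. The groups were 0.67 log2 units apart at their nearest, and p80HT 1 and 2 nearly equal. The log2 difference was 1.42 ± 0.35 (SE, limma adjusted p = 0.271, 2.68-fold), and 1.01 without p80HT 3 (adjusted p = 0.00631 in limma). The call was lost without WT 1 (1.38), without WT 2 (1.30) and by the analysis of variance.

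Lgals3, galectin-3, read 9.35, 9.47 and 9.95 in WT and 10.31, 10.16 and 11.64 in p80HT, again without overlap. It did not pass at 1.11 with all arrays (unadjusted p = 0.0249, limma fit on all genes), and passed at 0.64 without p80HT 3 (unadjusted p = 0.00356 in limma, adjusted 0.0626). Gpnmb, a glycoprotein of lipid-laden macrophages, read 6.59 to 6.87 in WT, 6.88 and 7.01 on p80HT 1 and 2 and 11.55 on p80HT 3. That array was 4.55 above the next, the widest such gap of the 34, and the log2 difference of 1.75, which did not pass, was 0.21 without that array. Trem2, the lipid receptor that signals through Tyrobp, showed nothing of this: it read 8.48, 8.37 and 8.26 in WT and 8.42, 8.12 and 8.05 in p80HT, with p80HT 3 the lowest of 6. Cebpb, a transcription factor of myeloid cells, was likewise lowest on p80HT 3, at 8.68, against 8.85 to 9.01 in WT and 8.89 and 8.78 on p80HT 1 and 2. That array was the lowest of the 6 for 48.1% of all genes. Neither Trem2 nor Cebpb passed (-0.17 and -0.14, or -0.10 and -0.08 without p80HT 3).

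**Figure D3:**
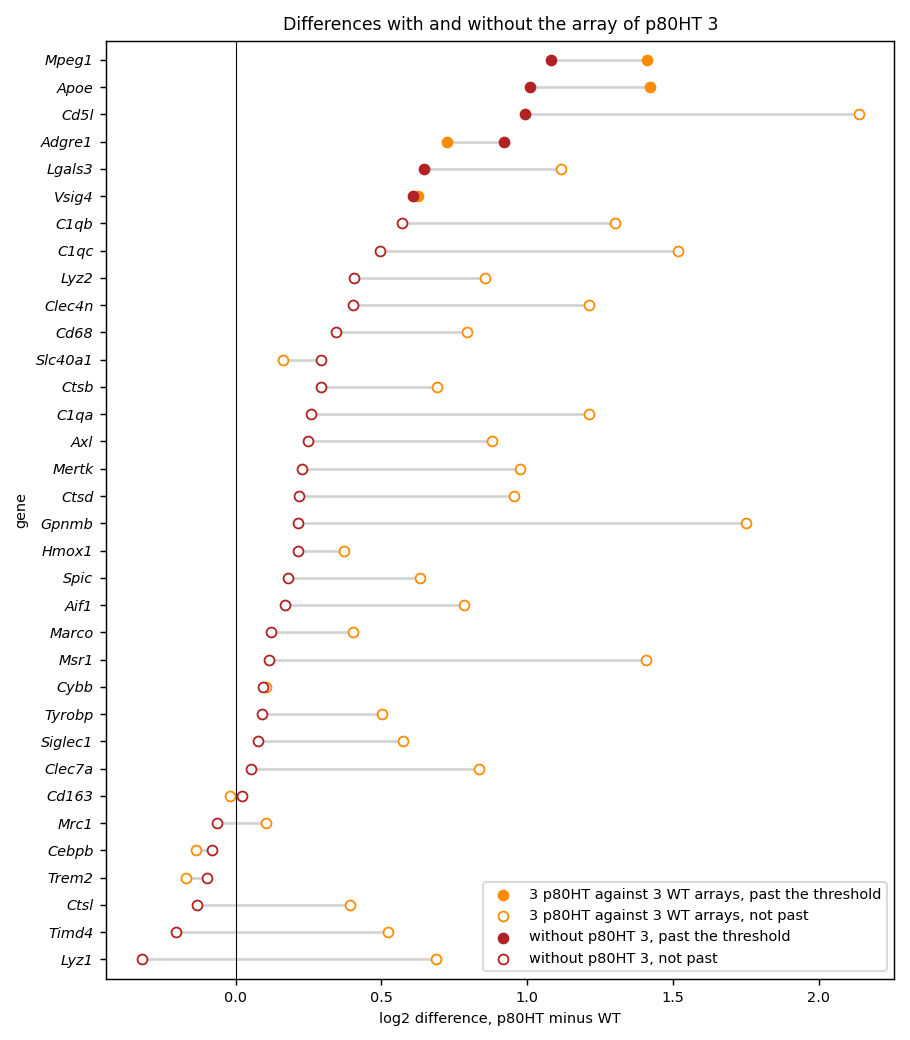
Log2 difference, p80HT minus WT (horizontal axis), of the 34 genes (rows, ordered by the difference without p80HT 3), with all 6 arrays in orange and without p80HT 3 in red, filled where the gene passed 1.5-fold with an unadjusted p under 0.01. Most differences shrink without p80HT 3, whereas those of Adgre1 and Slc40a1 grow and that of Vsig4 stays at about 0.6.

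Across the 34 genes, p80HT 3 gave the highest of the 6 values for 28, against 27.8% of all genes, and was more than 1 log2 unit above the next for 23, against 4.9%. The 6 members without this top value were Adgre1, Slc40a1, Vsig4, Cd163, Trem2 and Cebpb. On p80HT 1 and 2 the excess was smaller: both lay above all WT arrays for 17 of the 34, against 19.7% of all genes, and below all of them for Lyz1, against 20.5%. The mean log2 signal of the 34 was 8.94 to 9.02 on the WT arrays, 9.30 and 9.20 on p80HT 1 and 2, and 10.78 on p80HT 3.

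Further macrophage genes, were taken from lists that exclude the 34. Of 17 measured macrophage identity genes, 3 rose and none fell, against 1.22% and 0.968% of all genes. The 3 were Fcgr4, a receptor for IgG, Sirpa, the receptor for the signal CD47, and Cfp, properdin of the alternative complement pathway. Fcgr4 read 7.82, 7.57 and 7.47 in WT and 8.72, 9.32 and 10.59 in p80HT. Sirpa read 10.39, 10.29 and 10.27 in WT and 11.29, 11.22 and 12.47 in p80HT. Cfp read 11.05, 10.86 and 10.88 in WT and 11.72, 11.66 and 12.82 in p80HT. As with Mpeg1 and Apoe, all p80HT arrays were clear of WT for these 3 and p80HT 3 was highest. The median of the list was 0.94, and 0.43 without p80HT 3, where 3 rose and 5 had an adjusted p under 0.05 in limma. Of the 17 differences 16 were positive and 1 negative, or 14 and 3 without p80HT 3. That array was the highest for 15 of the 17 (27.8% of all genes) and the lowest for 1 (48.1%), Fcna, named after its values were seen. The analysis of variance called none of these 17, with 3 at an unadjusted p under 0.05.

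Of 14 measured lysosomal genes 1 rose and none fell, against 1.22% and 0.968% of all genes. The gene that rose was Grn, the growth factor progranulin, at 11.25 ± 0.05 (SD, n = 3) in WT and 12.24 ± 0.51 in p80HT. Its log2 difference was 0.99, and 0.70 without p80HT 3, where 2 of the list rose, against 2.01% of all genes. Of 13 other red pulp and iron genes none passed in limma or in the analysis of variance, and 1 had an unadjusted p under 0.05, Treml4, a receptor of red pulp macrophages and dendritic cells. It read 9.22, 9.22 and 9.07 in WT and 9.58, 9.65 and 9.54 in p80HT, without overlap but below 1.5-fold. Itgad, an integrin chain of red pulp macrophages named after its values were seen, read 8.34 to 8.50 in WT, 8.87 and 8.92 on p80HT 1 and 2 and 8.23 on p80HT 3, so on that array it lay below every WT array, and on the other p80HT arrays above them.

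Of 4 other genes tied to marginal zone macrophages or their relatives none passed with all 6 arrays in limma (1 lower at an unadjusted p under 0.05) or in the analysis of variance. Cd209d, a lectin of the DC-SIGN family, read 8.54, 9.25 and 9.02 in WT and 7.64, 7.80 and 8.57 in p80HT, and fell without p80HT 3 (-1.22, limma adjusted p = 0.00536). Cd209a, a lectin of dendritic cells, read 9.74 to 10.05 in WT, 9.65 and 9.26 on p80HT 1 and 2 and 7.74 on p80HT 3. Cd209b, the lectin SIGN-R1 that marks marginal zone macrophages, was named after its values were seen: it read 6.71 to 6.89 in WT, 6.85 and 6.77 on p80HT 1 and 2 and 10.24 on p80HT 3. Nr1h3, a nuclear receptor for oxysterols, also named after its values were seen, read 7.87 to 7.96 in WT, 8.22 and 8.55 on p80HT 1 and 2 and 11.43 on p80HT 3. On p80HT 3, Cd209b and Nr1h3 were thus above the other 5 arrays, Cd209a was below them and Cd209d lay within the range of the others.

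Of 4 oxidase subunits and 11 engulfment genes none passed in limma or in the analysis of variance. The array of p80HT 3 was the lowest for 3 of the 4 oxidase subunits, against 48.1% of all genes. At an unadjusted p under 0.05 in either direction, limma called none of the oxidase subunits and 2 of the engulfment genes, against 2042 of all 19938 genes. These 2 were Elmo1, a guanine nucleotide exchange partner in engulfment (-0.36, and -0.23 without p80HT 3), and Scarb1, a lipoprotein receptor (0.63 and 0.33).

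Markers of other cells moved beside the 34 on the same arrays. Of 7 T cell genes 4 rose (6 without p80HT 3), against 1.22% of all genes (2.01% without p80HT 3). The list mean was 8.87 to 9.22 in WT, 9.96 and 9.89 on p80HT 1 and 2 and 11.06 on p80HT 3. Of 6 erythroid genes 2 rose (5 without p80HT 3), against the same shares of all genes. Their mean was 7.51 to 7.64 in WT, 8.48 and 8.62 on p80HT 1 and 2 and 7.81 on p80HT 3. So p80HT 3 had the highest T cell mean and the lowest erythroid mean of the p80HT arrays. Of 8 dendritic cell genes none passed with all arrays in limma or in the analysis of variance. At an unadjusted p under 0.05 in limma 2 were higher and 2 lower, against 853 and 1189 of all 19938 genes. The higher were Itgax, which macrophages also carry (1.31, and 0.83 without p80HT 3, where it rose), and Batf3 (0.42 and 0.36), and the lower, named after their values were seen, Siglech (-0.44 and -0.41) and Ccr9 (-0.43 and -0.35). Of 6 monocyte and 8 neutrophil genes none passed in limma or by the analysis of variance, and none had an unadjusted p under 0.05 in limma. The neutrophil mean was lowest on p80HT 3, opposite to the 34. Of 7 B cell genes none passed with all arrays in limma (2 lower at an unadjusted p under 0.05) or in the analysis of variance, all 7 differences were negative, and Cr2, the complement receptor CD21, was at -1.99 (limma adjusted p = 0.394) and fell without p80HT 3 (-1.13). The part of these cells in the differences of the 34 genes was not tested.

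**Figure D4:**
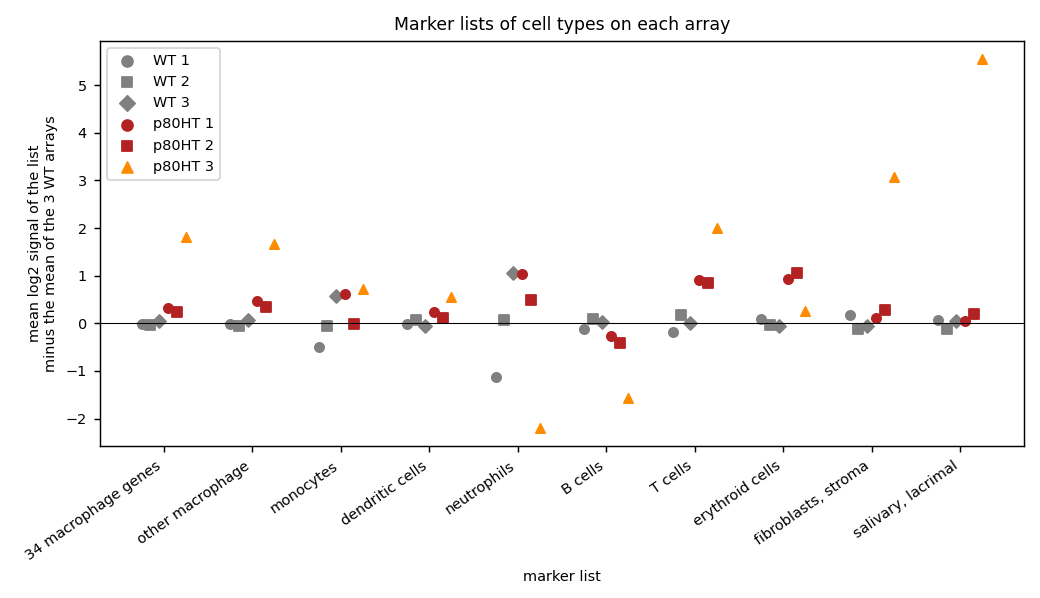
Mean log2 signal of each marker list (horizontal axis) minus its mean over the 3 WT arrays (vertical axis), 1 point per array. The 34 genes and the other macrophage identity genes lie above WT on p80HT 1 and 2 and further on p80HT 3, where gland and stroma lists are also high, the B cell list is at -1.58 and the neutrophil list at -2.19.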

How the data were processed

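By the study's methods, the RNA was of B220-selected spleen cells from 3 p80HT and 3 WT mice. It was measured on Affymetrix Mouse Gene 1.0 ST arrays, 1 per mouse, none pooled. The authors deposited log2 signals per probeset, and their processing notes name RMA and Partek. Versions and settings are not given in the sources used here. RMA corrects background and makes the arrays' distributions alike. Arrays give no read depth, and their number limits the precision.

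Of 28853 probesets, 21789 carry 1 symbol, 1621 several and 5443 none, and only the first were used. Where a gene had several, its brightest by mean signal was kept, which gave 19938 genes. Groups follow the sample titles. R 4.3.3 with limma 3.58.1 gave the tests (lmFit, eBayes, 2-sided, no block), with Benjamini-Hochberg adjustment over all genes, after a test on simulated data. A call needs 1.5-fold and an unadjusted p under 0.01. P-values measure the spread between these mice. The members and lists were chosen with earlier results of these data known, so no test was made over a list. Named are all 34 members and, of each further list, up to 3 genes past the threshold or the 2 with the smallest p, where a result turns on them. Itgad, Cd209b, Nr1h3, Siglech, Ccr9, Fcna and Spi1 fall outside this rule and were named after their values were seen. Nfkb2 is on none of the lists and was named because the transgene is a form of it. Of 131 genes on the 14 further lists, 121 were matched. Alternatives were leaving out each array, the methods' analysis of variance, a block for replicate number, an intensity trend, array weights, quantile normalization, median centring, filters at the 25th and 50th percentile, the mean of a gene's probesets and other thresholds. Tables and figures were made with Python 3.11.15, pandas 2.3.3 and matplotlib 3.10.9.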

Additional observations from a re-analysis of the deposited data

How the results depend on the processing

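With 3 mice a group and 1 array that stands apart, calls move easily. Leaving out 1 array gave 137 to 401 genes higher, 69 to 290 lower, and 2 to 6 of the 34 members higher, with 0 lower each time. The median of the members ran from 0.22 to 1.10 and red pulp minus marginal zone from -0.26 to 0.13. Of all genes, 119 were higher and 77 lower by the analysis of variance, 478 and 422 with array weights (0.0687 for p80HT 3), 10 and 1 at an adjusted p under 0.05, and 470 and 385 at 1.5-fold with an unadjusted p under 0.05. With median centring 190 were higher and 308 lower, a split unlike the 243 and 193 of the fit reported, and the median of all genes was -0.09. Of the members, 1 was higher by the analysis of variance and 0 at an adjusted p under 0.05, where 6 had an unadjusted p under 0.05 and 1.5-fold. Red pulp minus marginal zone was 0.27 with array weights. The filter at the 50th percentile removes 6 members, Marco among them, so this quantity was not computed there. With array weights the sign turned for Lyz1 (-0.26), Cd163 (0.16), Timd4 (-0.26), Ctsl (-0.23) and Trem2 (0.074). Leaving out 1 array, it turned for Lyz1 (-0.32 to 1.24), Mrc1 (-0.064 to 0.23), Cd163 (-0.13 to 0.051), Timd4 (-0.20 to 0.94) and Ctsl (-0.13 to 0.72). None of these was called. Of the values of single members under all alternatives, 471 kept direction and side of the threshold, 13 turned sign, 12 lost a call and 6 gained one. The cause was not tested.

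The labels do not say that replicate numbers pair the mice, and deviations from the group mean correlated at 0.07, -0.24 and 0.07 between same-numbered arrays, with 2 of 6 arrays closest to their own number. With the replicate number as a block, 6 members were higher and 0 lower (Lgals3 and Lyz2 besides the 4), among 363 genes higher and 204 lower. The median of the members stayed at 0.75 and red pulp minus marginal zone at -0.10.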
